A study of Homo sapiens with 2 samples.

Results

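The miR-18 and miR-19 families were represented by 5 mature miRNA names, chosen by name from the 2588 names counted in each of 2 small RNA libraries. In the files they are written hsa-miR-18a-5p, hsa-miR-18a-3p, hsa-miR-18b-5p, hsa-miR-19a-3p and hsa-miR-19b-3p. Both libraries came from MDA231, a triple-negative breast cancer line that the labels call parental. Lysate of these cells was incubated with amylose resin. In the bait library the resin held MACC1-AS1-MS2, the long non-coding RNA MACC1-AS1 joined to hairpins that bind the MS2 coat protein, made in vitro and tethered through that coat protein fused to maltose-binding protein. In the no-bait library there was no RNA substrate. Material released by maltose was purified and its miRNAs were sequenced, to find which miRNAs associate with the lncRNA. Each group was 1 library, so no difference below has a replicate check, and every interval covers counting error only. No library had the MS2 hairpins by themselves or another RNA as bait, so retention by MACC1-AS1, by the hairpins or by tethered RNA of any kind cannot be told apart.

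MicroRNAs guide Argonaute proteins to RNAs that pair with their seed, the bases near the 5′ end of the mature strand. miR-18a and miR-19 are cut from the miR-17-92 polycistron, a transcript known as an oncogenic cluster that MYC activates. miR-19 is known as a main contributor to the oncogenic activity of the cluster in tumour models, and miR-18a is known in breast cancer for targeting the oestrogen receptor mRNA. A paralogous cluster on the X chromosome encodes miR-18b and a further copy of miR-19b.

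All 5 names matched a mature sequence in RefSeq (GRCh38.p14). The sequences are shown because they set the families apart and because near-identical members can share reads. Capitals mark the seed, bases 2 to 8 from the 5′ end.
miR-18a-5p: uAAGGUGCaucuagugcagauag
miR-18b-5p: uAAGGUGCaucuagugcaguuag
miR-18a-3p: aCUGCCCUaagugcuccuucugg
miR-19a-3p: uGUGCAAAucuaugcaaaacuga
miR-19b-3p: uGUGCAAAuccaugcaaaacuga
miR-17-5p: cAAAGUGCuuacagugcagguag

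Each of these is 23 bases long. From miR-18a-5p to miR-18b-5p there was 1 substitution, A20U, and from miR-19a-3p to miR-19b-3p also 1, U11C, with positions counted from the 5′ end. Neither lies in the seed. miR-17-5p, the first miRNA of the same polycistron, is shown because its seed is that of miR-18a-5p but for the substitution G4A. The miR-18 seed occurs in 3 human mature names of the RefSeq table, of which miR-4735-3p is the other one, with 0 counts in both libraries. The miR-19 seed occurs only in miR-19a-3p and miR-19b-3p there, and the seed of miR-18a-3p in that name alone.

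The hairpin MIR18A lies at chr13:91350751-91350821, MIR19A at chr13:91350891-91350972 and MIR19B1 at chr13:91351192-91351278, all on the plus strand (GRCh38, GENCODE version 29). Each is inside the host gene MIR17HG, in an intron of its transcript 201, in exon 3 of transcript 202 and in exon 2 of transcript 203. MIR18B at chrX:134170041-134170111 and MIR19B2 at chrX:134169671-134169766 lie on the minus strand in exon 2 of the non-coding gene AC002407.1. The mature miR-19b-3p is the same from MIR19B1 and MIR19B2, so its counts cannot be assigned to either locus.

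The bait library held 1047269 miRNA counts and the no-bait library 269716, a 3.88-fold difference in depth. miR-100-5p and miR-21-5p, both listed as markers of basal breast lines, were among the most abundant miRNAs, and the 5 names of that list summed to 530164 RPM (the count scaled per 1000000 miRNA counts of the library) with bait and 599405 RPM without. Within that list miR-125b-5p had a ratio of bait over no bait of 11.4 (95% interval 10.7 to 12.03) and miR-222-3p one of 0.200 (0.194 to 0.205). The 6 epithelial names summed to 181 and 111 RPM, mostly miR-200b-3p with 144 and 28 counts. Among the other epithelial names miR-200c-3p had 20 and 1 counts, miR-200a-3p 18 and 1 and miR-429 8 and 0. The epithelial names miR-141-3p and miR-205-5p had 0 counts in both. The 6 blood cell names summed to 432 and 864 RPM, mostly miR-486-5p with 386 and 214 counts. Of the rest of that list miR-142-5p had 45 and 9 counts, miR-142-3p 17 and 0 and miR-451a 4 and 10, with miR-144-3p and miR-223-3p at 0 in both. Their part in the results was not tested.

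The 5 members were scarce in both libraries and took a larger share of the one with bait. They summed to 448 counts with bait, 0.0428% of the library (exact Clopper-Pearson 95% interval 0.0389% to 0.0469%). Without bait they summed to 18 counts, 0.00667% (0.00396% to 0.0105%). A miRNA was tested at 30 or more counts over both libraries. It counted as higher if its RPM ratio, bait over no bait, was 2 or more and as lower if it was 0.5 or less, where the exact conditional binomial 95% interval of the ratio excluded 1. Of the 5 members 3 reached the minimum, and these 3 were higher. Of all 231 tested miRNAs 39.4% were called higher and 26.8% lower. With no count filter the same 3 members were called higher, where 13.3% of 715 miRNAs were higher and 14% lower. Those 715 include names with 3 counts or fewer in each library, which have no ratio and could not be called. Their presence lowers both shares. Among the 43 tested miRNAs with 100 to 250 counts, a range that includes the 3 tested members and was chosen after their counts were seen, 44.2% were higher and 23.3% lower. The count minimum limited which ratios could be tested, since it adds unscaled counts of libraries of unequal depth. With 2 counts without bait, as for miR-18a-5p, a miRNA was tested only from 28 bait counts. That already gives a ratio of 3.61, but its interval would start at 0.909, so it would not be called higher. For miR-19a-3p, with 4 counts, the least ratio was 1.67, and for miR-19b-3p, with 11, it was 0.445, so that its ratio could have fallen on either side.

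**Figure D1:**
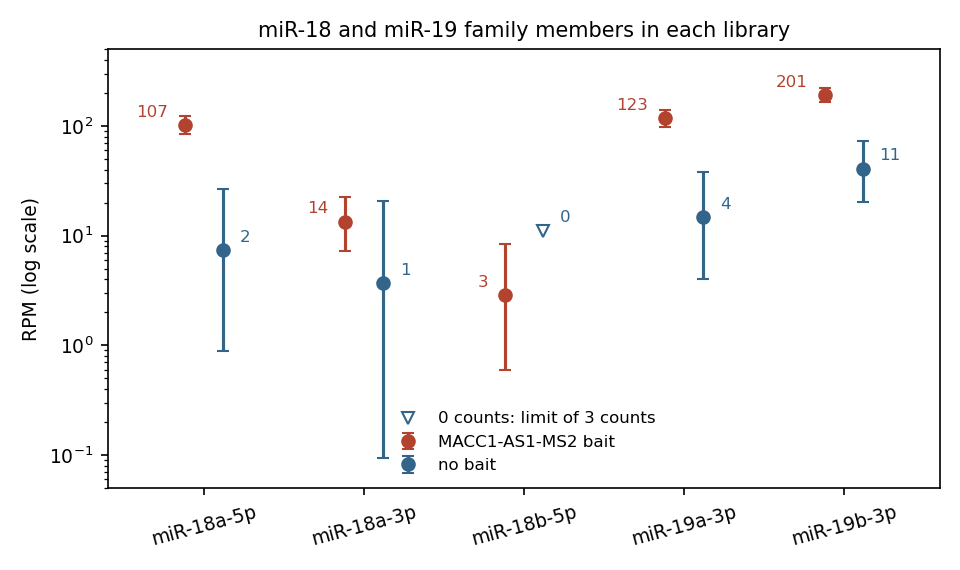
RPM of the 5 members in the bait library (red) and the no-bait library (blue) on a log axis, with exact Poisson 95% intervals as bars, counts as labels, and an open triangle at the limit of 3 counts for a count of 0. Intervals of the libraries are separate for miR-18a-5p, miR-19a-3p and miR-19b-3p and overlap for miR-18a-3p, and miR-18b-5p has 3 counts in all.

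miR-18a-5p, the guide strand of its hairpin, had 107 counts with bait, 102 RPM (exact Poisson 95% interval 83.7 to 123). Without bait it had 2 counts, 7.42 RPM (0.898 to 26.8). The bait value lay far above the no-bait interval, and the ratio was 13.8 (3.72 to 115). Among all names it ranked 128 by count with bait and 291 without. Tied names share the best rank of the tie, so every name with 2 counts without bait ranked 291. Names with a count numbered 651 with bait and 476 without, so ranks of the 2 libraries are not directly comparable. The 2 counts without bait leave the size of its ratio known only within that wide interval.

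miR-18a-3p is the opposite arm of the same hairpin and has a seed of its own. Its 14 counts with bait gave 13.4 RPM (7.31 to 22.4). The 1 count in the other library gave 3.71 RPM (0.0939 to 20.7). The ratio of 3.61 had an interval of 0.549 to 152, so no difference was detectable at this depth, and the name stayed below the count minimum. The 5p arm made up 88.4% of the hairpin's counts with bait (exact Clopper-Pearson 95% interval 81.3% to 93.5%), 107 of 121. Without bait it was 2 of 3 counts, 66.7% (9.43% to 99.2%). The arms' ratios did not differ beyond counting error, with a conditional odds ratio of 3.76 (0.0605 to 76.6).

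miR-18b-5p, the X-linked relative with the same seed, had 3 counts with bait, 2.86 RPM (0.591 to 8.37), and 0 without. Both libraries held 3 counts or fewer, so no ratio was formed. At the no-bait depth 3 counts would be 11.1 RPM. The exact Poisson upper bound of the 0 was 13.7 RPM, and both values are above the bait value. Of the reads given to miR-18a-5p or miR-18b-5p, 97.3% went to miR-18a-5p with bait (92.2% to 99.4%), 107 of 110. With the counts of both names summed the miR-18 5p ratio was 14.2 (3.83 to 118) from 110 and 2 counts. How reads that fit several names were counted bears on such a sum. Among names with a count in either library, those with 1 shared mature sequence held equal counts in 3 of 3 groups. miR-199a-3p and miR-199b-3p, for instance, both held 176 and 92. Names without any count were left out beforehand. A group whose reads all went to 1 name could therefore not show as unequal. Whether reads of the near-identical miR-18 or miR-19 names were also counted under more than 1 name was not tested.

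miR-19b-3p was the most abundant member in both libraries. It had 201 counts with bait, 192 RPM (166 to 220), and 11 counts without, 40.8 RPM (20.4 to 73.0). The intervals were separate, and the ratio was 4.71 (2.57 to 9.58). It ranked 97 by count with bait and 171 without.

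miR-19a-3p had 123 counts with bait, 117 RPM (97.6 to 140), and 4 counts without, 14.8 RPM (4.04 to 38.0). It too was higher with bait, with a ratio of 7.92 (3.02 to 29.5). Its ranks by count were 120 and 228. Summed, miR-19a-3p and miR-19b-3p reached 324 and 15 counts, which gave a ratio of 5.56 (3.32 to 10.1). This sum had the narrowest interval of the members' values. The passenger arms miR-19a-5p, miR-19b-1-5p and miR-19b-2-5p had 0 counts in both libraries, as did miR-18b-3p.

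The balance between the near-identical miR-19 names was not shown to change. miR-19b-3p took 62.0% of the miR-19 3p counts with bait (56.5% to 67.3%) and 73.3% without (44.9% to 92.2%). The ratio of miR-19a-3p was 1.68 times that of miR-19b-3p (conditional odds ratio, 0.484 to 7.40). Between the families, the summed miR-18 5p ratio was 2.54 times the summed miR-19 3p ratio (0.577 to 23.3). Neither interval excludes 1, and both leave room for a several-fold difference in favour of the first name. For miR-18a-5p against miR-18b-5p the 0 counts of the latter without bait left the odds ratio with an upper bound alone, at 227.

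The members were then set beside the other products of their clusters. For the more abundant arm of each hairpin, the order within the miR-17-92 polycistron was the same in both libraries. It ran from miR-92a-3p through miR-20a-5p, miR-17-5p, miR-19b-3p and miR-19a-3p to miR-18a-5p. With bait the levels were 128242, 723, 550, 192, 117 and 102 RPM, and only the intervals of the neighbours miR-19a-3p and miR-18a-5p overlapped. Without bait they were 122451, 163, 96.4, 40.8, 14.8 and 7.42 RPM, and below miR-92a-3p the intervals of all neighbours in that order overlapped. The opposite arms do not keep to one order. miR-92a-1-5p, with 4 and 5 counts, had 3.82 RPM with bait and 18.5 RPM without, where it stood above miR-19a-3p. miR-17-3p had 25 and 1 counts, and both names were below the count minimum. miR-92a-3p, which the X-linked cluster also encodes, outnumbered the miR-19 3p sum 415-fold with bait and 2202-fold without. It outnumbered the miR-18 5p sum 1221-fold and 16514-fold.

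Its ratio of 1.05 (1.03 to 1.06) passed neither rule, and the members' ratios differed from it beyond counting error. The miR-18 5p ratio was 13.5 times that of miR-92a-3p (conditional odds ratio, 3.66 to 113) and the miR-19 3p ratio 5.31 times (3.17 to 9.60). These odds ratios do not depend on the scaling between libraries. Against miR-17-5p and miR-20a-5p, the products of this polycistron with the miR-17 seed, no such difference was detectable. miR-17-5p, with 576 and 26 counts, had a ratio of 5.71 (3.85 to 8.81), against which the miR-19 3p ratio stood at 0.975 (0.489 to 2.01) and the miR-18 5p ratio at 2.48 (0.606 to 21.9). miR-20a-5p, with 757 and 44 counts, had a ratio of 4.43 (3.27 to 6.15), against which the miR-19 3p ratio stood at 1.26 (0.674 to 2.46) and the miR-18 5p ratio at 3.19 (0.813 to 27.6). In all 10 pairs were compared, 4 planned and 6 added after the data were seen, with intervals not adjusted for their number.

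**Figure D2:**
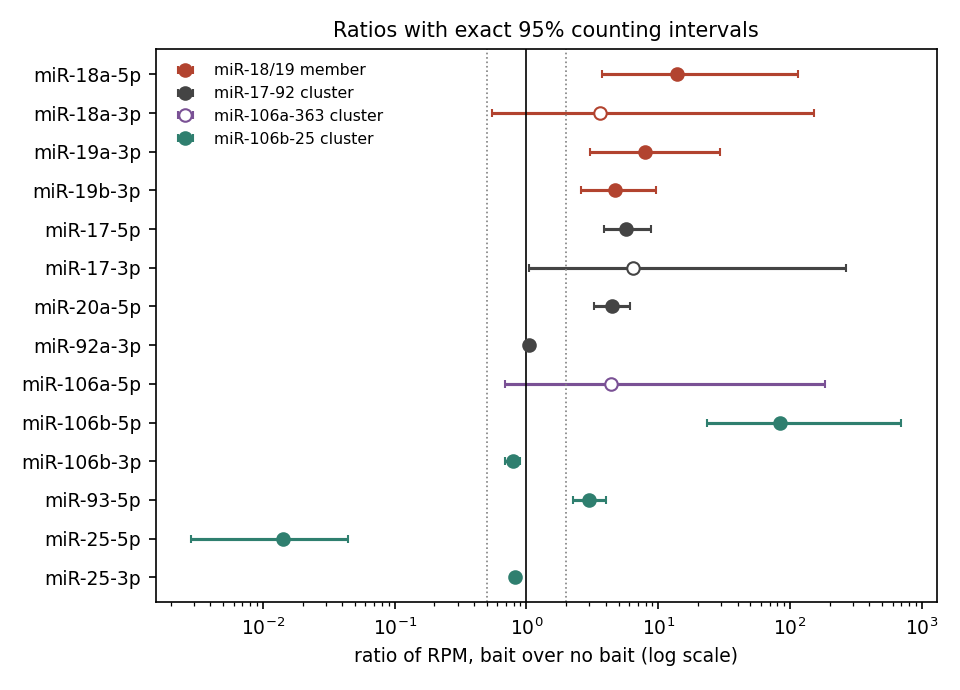
Ratio of RPM, bait over no bait, on a log axis, with exact conditional binomial 95% intervals, for the members (red) and other cluster names with at least 10 counts and a count in both libraries. Filled points were tested and open points were not, the solid line marks a ratio of 1 and the dotted lines 0.5 and 2. The 3 tested members lie to the right of 2 with miR-17-5p and miR-20a-5p, while miR-92a-3p lies at 1.05.

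Of the other 8 names of the miR-17-92 cluster 3 were tested, and 2 of them were higher and 0 lower. None of the other 9 names of the X-linked miR-106a-363 cluster was tested, and 6 had no count in either library. Its most counted name was miR-106a-5p, with 17 and 1 counts. Of the 6 names of the miR-106b-25 cluster, which has no miR-18 or miR-19 hairpin, 5 were tested, 2 were higher and 1 was lower. The higher ones were miR-106b-5p at 84.3 (23.3 to 698) and miR-93-5p at 3.00 (2.27 to 4.04), and the lower one was miR-25-5p with 3 and 54 counts. Over the 3 clusters 4 of 8 tested names were higher and 1 was lower, beside 39.4% higher and 26.8% lower among all 231 tested miRNAs. So few names do not set the clusters apart from that share. Their median ratio was 2.03, beside 1.46 for all tested miRNAs.

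The miRNAs closest to the members were found by distance over the log2 RPM of the 2 libraries, with 0.5 counts added. Nearest to miR-18a-5p were miR-132-5p with 87 and 2 counts, miR-374b-5p with 115 and 3, and miR-21-3p with 72 and 2. Nearest to miR-19a-3p were miR-340-3p with 144 and 4 counts, miR-505-3p with 118 and 5, and again miR-374b-5p. Nearest to miR-19b-3p were miR-149-5p with 180 and 12 counts, miR-24-2-5p with 250 and 13, and miR-29b-3p with 146 and 12. Likeness over 2 libraries amounts to a like level and ratio, and the scatter of all miRNAs shows several others around each member.

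**Figure D3:**
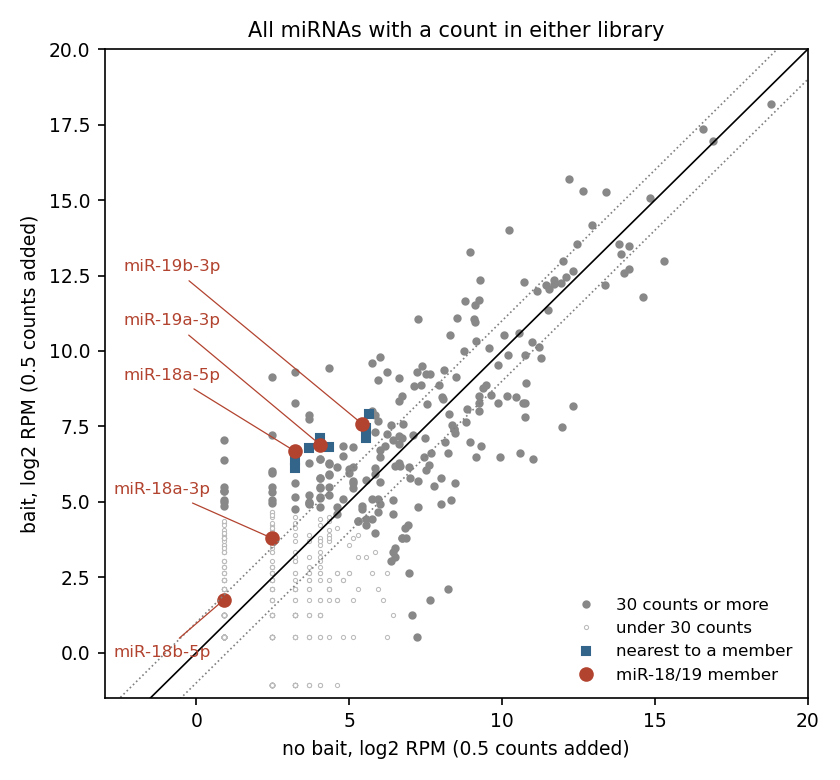
Level of each miRNA with a count in either library, as log2 RPM with 0.5 counts added, without bait (horizontal) and with bait (vertical). The solid line marks equal levels and the dotted lines a difference of 2-fold, and the 3 tested members (red) and their nearest miRNAs (blue squares) lie above the upper dotted line in the lower part of the range.

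Seed matches were looked for in MACC1-AS1, since miRNAs are known to find RNAs through the seed. GENCODE annotates 1 transcript of it, 639 nt long. MACC1-AS1 (ENSG00000228598.1) lies at chr7:20141916-20153531 on the plus strand (GRCh38), with 4 exons. The isoform and the MS2 repeats of the bait were not analysed here. On the transcript's own strand the motif GCACCTTA, the reverse complement of miR-18 bases 2 to 8 followed by an A, occurred 1 time, at transcript positions 54 to 61 in exon 1 (chr7:20141969-20141976). The 30 bases around it (chr7:20141951-20141980, plus strand) are shown with the motif in capitals.
MACC1-AS1 exon 1: acacacgtcacacacacaGCACCTTAaaat

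The same 8 bases occur in 15 of 4259 other long non-coding transcripts of 575 to 703 nt in GENCODE, or 0.352%, and its first 7 bases, GCACCTT, in 4.06%. The matching motif for miR-19, TTTGCAC, occurred 0 times in MACC1-AS1, as did its 6-base core TTGCAC, and TTTGCAC occurs in 3.55% of those transcripts. Nor did AGGGCAG, for miR-18a-3p, or GCACTTT, for miR-17-5p, occur there, which 7.82% and 6.76% of the transcripts hold. Of the 3 tested members 1, miR-18a-5p, thus had a 7-base match and 2 had none, and all 3 were higher with bait. A match describes letters in this annotated transcript and no contact in the experiment.

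In the authors' deposited table the log2 fold changes of bait over no bait were 3.78 for miR-18a-5p, 2.99 for miR-19a-3p and 2.23 for miR-19b-3p, and each had a p-value below 0.05 there. The authors' deposited table gives 1.85 for miR-18a-3p and 8.16 for miR-18b-5p with p-values above 0.05. The value for miR-18b-5p in the authors' deposited table sets 3 counts against a small number in place of 0 and has no ratio here. That table rests on the same 2 libraries and does not name its test, so it is no separate check.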

How the data were processed

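miRNAs of 1 bait and 1 no-bait library from MDA231 lysate were analysed. The deposited values are whole-number counts per mature miRNA name, and BWA, with no version, is the tool in the submitters' processing notes. Not given in the sources used here are the miRNA reference, build, trimming and treatment of reads matching several names. The deposited normalized values are RPM, equal to the count over the library total to within 0.00994 RPM. The authors also deposited a table of log2 fold changes and p-values.

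Counts were scaled by library totals. Ratios have exact conditional binomial intervals, levels exact Poisson intervals, shares exact Clopper-Pearson intervals and pairs of members conditional odds ratios (SciPy 1.17.1), all at 95% and for counting error only. Reads without molecular identifiers are not independent molecules. No p-value was computed, since each group is 1 library. No ratio was formed where both libraries held 3 counts or fewer. Elsewhere a count of 0 was set to 3 counts in the ratio, while its interval kept the 0. Ratios such as that of miR-193b-3p, 7.47 from 87 and 0 counts, therefore depend on that setting. The interval script was tested on simulated data.

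The members and lists were chosen with earlier results of these data known. Named miRNAs are the 5 members, the cluster names, the 3 tested miRNAs nearest to each tested member, and the most abundant and marker names, and others were named after their values were seen. Alternatives were scaling by edgeR 4.0.16 TMM factors, by DESeq2 1.42.0 size factors and by totals without the 5 most abundant miRNAs, other count minimums, a stricter interval rule and the deposited RPM.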

Additional observations from a re-analysis of the deposited data

How the results depend on the processing

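No paired analysis was possible because each group held 1 library. The calls of miR-18a-5p, miR-19a-3p, miR-19b-3p and both family sums did not change under any of the 3 other scalings. The ratio of miR-18a-5p ran from 12.6 with totals without the 5 most abundant miRNAs to 18.5 with DESeq2 size factors, that of miR-19a-3p from 7.24 to 10.6 and that of miR-19b-3p from 4.30 to 6.30. The median ratio of all tested miRNAs moved from 1.46 to 1.33 and 1.96 under the same 2 scalings, a log2 shift of -0.13 and 0.42, which follows from the changed factor. The number of members called higher stayed at 3 with minimums of 10 and 100 counts, with no count filter and with an interval bound beyond 2-fold. The minimum enters neither the ratio nor its interval, and these 3 members pass each minimum. Of these settings only the bound beyond 2-fold could thus have removed a call. With no count filter the share of all miRNAs called higher fell to 13.3% of 715, which include names with too few counts for a ratio. Of the other cluster names, 0 were called lower at a minimum of 100 counts and 2 with no count filter, against 1 as reported, which follows from the number of names tested. The members' precision is limited by 18 counts without bait.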

Other observations

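Of the 231 tested miRNAs 203 had a mature sequence in the RefSeq table. Among these miR-18a-5p was the only one whose 8-base seed match occurred in the annotated MACC1-AS1 transcript. A 7-base match to bases 2 to 8 was present for 4 of them, miR-18a-5p, miR-143-3p, miR-193b-3p and miR-210-3p, and 3 of the 4 were called higher with bait. Of the 199 without such a match 78 were higher, or 39.2%. These numbers are given as a description, since 4 names are too few to compare.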
